A study of Mus musculus with 12 samples.

Results

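The genes described here are 10 members of the BCL2 family: the survival genes Bcl2, Bcl2l1 and Mcl1, the pore-forming death effectors Bax and Bak1, and the BH3-only death genes Bcl2l11, Bid, Bad, Bbc3 and Pmaip1. They were chosen by gene symbol from the annotation of the array, which names 30157 genes, and all 10 were present. All 10 were well above background on each of the 12 arrays and were among the 18646 genes tested.

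The study profiled total RNA of mouse CD4+ T cells on 12 single-colour arrays in 4 groups of 3. The immunised CNS group held CD4+ T cells from the central nervous system (CNS) of C57BL/6 mice at the peak of experimental autoimmune encephalomyelitis (EAE), which serves as a mouse model for multiple sclerosis, induced by immunisation with MOG35-55, a peptide of myelin oligodendrocyte glycoprotein (MOG). The transferred CNS group held B6.2d2 Th17 cells that had been differentiated in vitro, given to Rag1-/- mice and recovered from their CNS at the peak of EAE. The cultured Th17 group held B6.2d2 Th17 cells differentiated in vitro from naive cells, and the naive group held CD4+ T cells from B6.2d2 spleen. B6.2d2 mice carry a transgenic T cell receptor specific for MOG, so 3 of the 4 groups share that receptor and the immunised CNS group does not. Rag1-/- hosts make no T or B cells of their own, while myeloid and glial cells remain. Ages, cell purity and the number of animals behind a sample are not given in the sources used here. Replicates came from 3 independent experiments.

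Proteins of the BCL2 family decide whether the outer membrane of the mitochondrion is opened, which releases cytochrome c and starts the caspase cascade. BAX and BAK form the pore, BCL2, BCL-XL (from Bcl2l1) and MCL1 hold them back, and BH3-only proteins either block the survival proteins or activate the effectors. In T cells, naive cells are known to depend on BCL2 and MCL1 downstream of interleukin 7, activated cells switch on BCL-XL, and BIM (from Bcl2l11) is a main driver of death when a response ends.

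The measured letters of 2 of the genes lie in coding sequence that defines the family, and are shown for that reason. The Bcl2 probe (mm9 chr1:108608970-108609029, minus strand) reads through the end of the BH1 region, one of the segments that shape the groove where BH3 domains bind, in capitals. The Bcl2l11 probe (mm9, plus strand, joining exons between chr2:127972893 and chr2:127983988) begins inside the core of the BH3 domain, the segment that fills that groove. The later part of that core is in capitals.
Bcl2: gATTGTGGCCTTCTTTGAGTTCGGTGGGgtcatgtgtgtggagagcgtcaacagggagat
Bcl2l11: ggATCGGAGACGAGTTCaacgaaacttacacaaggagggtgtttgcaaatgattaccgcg

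A level is the log2 processed signal of a gene's brightest probe minus the 75th percentile of its array, so 0 is that percentile. Means are given ± SD over 3 arrays, differences with the standard error (SE) of a limma model over all 12 arrays, and p-values were adjusted over all 18646 genes, with a gene called under 0.05. A level of one gene cannot be set against that of another, because probes differ in brightness. In these bulk samples, fewer cells of a type and less RNA per cell cannot be told apart.

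The arrays are described here before the results. The share of probes well above background ran between 57.0% and 64.9%. All 14 T cell core genes were well above background on every array, with summed signals, in multiples of the array's 75th percentile, of 463 to 695 in immunised CNS, 362 to 491 in transferred CNS, 682 to 808 in cultured Th17 and 666 to 788 in naive arrays. Sums of 16 macrophage and monocyte markers were 482 to 1104 in immunised CNS, 643 to 984 in transferred CNS, 21.3 to 33.4 in cultured Th17 and 24.5 to 98.3 in naive arrays. Itgam, at levels of 5.55, 4.48 and 6.58, made up most of the naive sums. Against naive, 15 of the 16 were called higher and 1, Itgam, lower in each CNS group. The median log2 differences were 8.66 in immunised and 8.94 in transferred CNS. Sums of 10 neutrophil markers were 482 to 617 in immunised CNS, 6.25 to 180 in transferred CNS, 11.7 to 17.2 in cultured Th17 and 5.22 to 7.49 in naive arrays. Sums of 8 microglia markers, some of which T cells also express, were 117 to 146 in immunised CNS, 130 to 146 in transferred CNS, 82.2 to 107.5 in cultured Th17 and 82.5 to 126 in naive arrays. Siglech made up most of these sums and was not called in any comparison. Its mean levels were 6.27 in immunised CNS, 6.54 in transferred CNS, 6.48 in cultured Th17 and 6.63 in naive cells. Of the 8 markers, 6 were called higher than naive in immunised CNS and 7 in transferred CNS, and 0 lower. Relative to cultured Th17, 7 were called higher and 0 lower in each CNS group. The median log2 differences from cultured Th17 were 4.07 in immunised and 4.32 in transferred CNS. On no array of a group were C1qa and C1qc above background in cultured Th17, nor C1qc, Fcgr1, Emr1, Mrc1 and Ms4a7 in naive cells. Macrophage, monocyte and microglia markers therefore moved with every comparison of a CNS group against a group from outside the CNS. In cultured Th17 against naive, 9 of the 16 macrophage and monocyte markers were called higher and 2 lower, with a median log2 difference of 1.73. Between the CNS groups, 5 of the 10 neutrophil markers were called higher in immunised CNS and 0 lower, with a median of 4.05. The part of all these markers in the results below was not tested. Cultured Th17 replicate 3 stood apart, with a mean correlation across genes of 0.959 with the other cultured arrays, against 0.978 to 0.990 within the other groups. Cultured replicates 1 and 2, at 0.9738 and 0.9695, also lay below that range.

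Against naive cells, most of these genes were higher in each of the 3 other groups. In the immunised CNS group 7 of 10 members rose and 0 fell, where 20.6% of all genes tested rose and 27.8% fell (48.4% either way). In the transferred CNS group 7 rose and 0 fell, against 21.2% and 26.6% of all genes (47.7% either way). In cultured Th17 cells 8 rose and 1 fell, against 19.7% and 20.3% of all genes (40.1% either way). The median log2 difference of the 10 members from naive was 1.02 in immunised CNS, 1.12 in transferred CNS and 1.18 in cultured Th17, while the median over all genes was -0.19, -0.12 and -0.08 in the same groups. The 3 comparisons share the same naive arrays, so they are not separate evidence of one another.

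Between the other groups fewer members were called. Against cultured Th17 cells, 2 members rose and 2 fell in immunised CNS, where 13.7% of all genes rose and 17.8% fell (31.5% either way). In transferred CNS 2 members rose and 0 fell against cultured Th17, where 12.8% of all genes rose and 15.5% fell (28.3% either way). The shares of members called either way in these comparisons, 4 of 10 and 2 of 10, were near those of all genes. No member was called between immunised and transferred CNS by limma, where 3.22% of all genes were called, 1.85% higher and 1.37% lower, and 1 member, Bcl2, had an unadjusted p under 0.05. Without cultured replicate 3 the members called were 7 for immunised CNS and 8 for transferred CNS against naive, 8 for cultured Th17 against naive, 1 for immunised CNS and 2 for transferred CNS against cultured Th17, and 1 between the CNS groups.

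**Figure D1:**
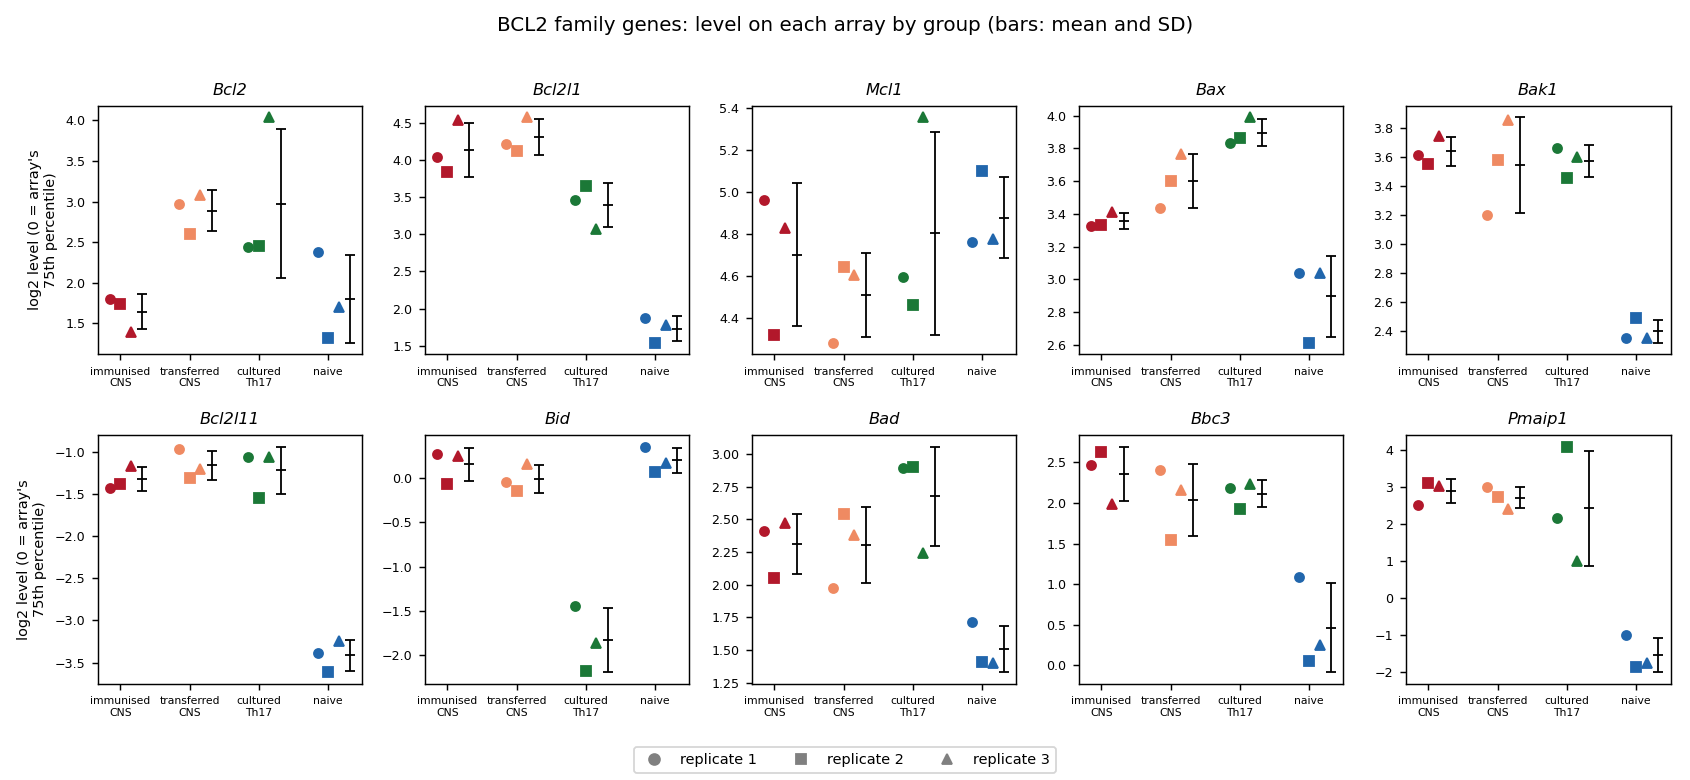
Level of each of the 10 genes on every array (y axis, log2 signal relative to the array's 75th percentile, with its own range for each gene) in immunised CNS, transferred CNS, cultured Th17 and naive samples, with marker shapes for replicates and bars for the mean and SD of 3 arrays. Bcl2l1, Bak1, Bcl2l11, Bad, Bbc3 and Pmaip1 lie lowest on the 3 naive arrays, Bid lies lowest on the 3 cultured arrays, and Mcl1 overlaps between most groups.

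Among the survival genes, Bcl2l1, which encodes BCL-XL, rose most. Its levels were 4.04, 3.83 and 4.54 in immunised CNS and 4.22, 4.12 and 4.58 in transferred CNS. They were 3.46, 3.65 and 3.07 in cultured Th17 and 1.87, 1.54 and 1.78 in naive cells. The CNS arrays all lay above the cultured arrays, which all lay above the naive arrays, and only the 2 CNS groups overlapped. Relative to naive cells Bcl2l1 was 5.30-fold higher in immunised CNS (log2 2.41, SE 0.23, adjusted p = 2.03e-05), 5.96-fold higher in transferred CNS (log2 2.57, SE 0.23, adjusted p = 1.32e-05) and 3.17-fold higher in cultured Th17 (log2 1.66, SE 0.23, adjusted p = 0.000268). Relative to cultured Th17 it rose by a log2 of 0.74 in immunised CNS (SE 0.23, adjusted p = 0.0318) and of 0.91 in transferred CNS (SE 0.23, adjusted p = 0.0144). Without cultured replicate 3 the first of these was 0.58 (adjusted p = 0.0894) and the second 0.75 (adjusted p = 0.0386). The second was 0.77 without transferred CNS replicate 3 (adjusted p = 0.0575), and the first also lost its call without cultured replicate 1 or immunised CNS replicates 1 or 3 (adjusted p up to 0.122). The probe used lies at mm9 chr2:152606404-152606463 on the minus strand.

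Bcl2, the founding survival gene, behaved differently from Bcl2l1. Its levels were 1.79, 1.73 and 1.39 in immunised CNS and 2.97, 2.60 and 3.08 in transferred CNS. They were 2.44, 2.45 and 4.04 in cultured Th17 and 2.38, 1.31 and 1.70 in naive cells. Immunised CNS arrays lay inside the naive range, transferred CNS and cultured arrays lay above every naive array, and cultured replicate 3 was the highest of all. The difference from naive was -0.16 in immunised CNS (95% interval -1.08 to 0.76, adjusted p = 0.772), 1.09 in transferred CNS (0.16 to 2.01, adjusted p = 0.0523) and 1.18 in cultured Th17 (0.25 to 2.10, adjusted p = 0.0444). Only the last was called, and its size within the 3 slides ran between 0.06 and 2.34. It was 0.64 without cultured replicate 3 (adjusted p = 0.108), and with slide as a block its adjusted p was 0.05, so that it was no longer called. Leaving out 1 array ended that call for 9 of 12 arrays. Transferred CNS against naive, in turn, was called under 10 of 23 alternatives, among them quantile normalisation (adjusted p = 0.0378), only the 6 arrays compared (adjusted p = 0.0266) and leaving out cultured replicate 3 (adjusted p = 0.00625).

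Among the 10 members, Bcl2 had the largest difference between the CNS groups. Each immunised CNS array was below each transferred CNS array, by 0.87 to 1.69 within slides, and the mean difference was -1.24 (SE 0.42, 95% interval -2.17 to -0.32). That difference was not called over all genes (adjusted p = 0.131), but it was with only the 6 CNS arrays in the model (adjusted p = 0.0285) and without cultured replicate 3 (adjusted p = 0.0249). Against cultured Th17 cells Bcl2 was 2.52-fold lower in immunised CNS (log2 -1.33, SE 0.42, adjusted p = 0.0331), and -0.80 without cultured replicate 3 (adjusted p = 0.0659). It also lost its call without any 1 of the immunised CNS arrays (adjusted p up to 0.104). The 2 CNS groups differ in strain, receptor, host and route of induction at once, and these cannot be told apart. Their marker sums also differed. Neutrophil sums were 482 to 617 in immunised and 6.25 to 180 in transferred CNS, and T cell core sums were 463 to 695 and 362 to 491. The part of cell content in the Bcl2 difference was not tested.

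Mcl1 encodes a short-lived survival protein that lymphocytes need throughout life. The brighter of its 2 probes (mm9 chr3:95466855-95466914) gave 4.96, 4.32 and 4.83 in immunised CNS, 4.28, 4.64 and 4.61 in transferred CNS, 4.59, 4.46 and 5.36 in cultured Th17 and 4.76, 5.10 and 4.77 in naive cells. Every pair of groups overlapped except transferred CNS and naive, and no comparison was called. The differences from naive were -0.18 in immunised CNS, -0.37 in transferred CNS and -0.07 in cultured Th17, with an interval of -0.65 to 0.50 for the last. Under quantile normalisation the transferred CNS difference was -0.69 and was called (adjusted p = 0.0268).

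The dimmer Mcl1 probe (mm9 chr3:95465543-95465602) gave another picture. It gave 4.54, 4.04 and 4.82 in immunised CNS, 4.21, 4.36 and 4.86 in transferred CNS, 3.38, 3.30 and 3.82 in cultured Th17 and 3.57, 2.88 and 2.96 in naive cells. On this probe every CNS array lay above every cultured and naive array. It rose against naive by 1.33 in immunised CNS (adjusted p = 0.00276) and by 1.34 in transferred CNS (adjusted p = 0.0026), and against cultured Th17 by 0.97 in immunised CNS (adjusted p = 0.0229) and 0.98 in transferred CNS (adjusted p = 0.0234). Over the 12 arrays the 2 Mcl1 probes had a Pearson r of -0.16, where those of Bcl2l1 had 0.97, Bcl2l11 0.83 and Bad 0.75, given as a description of arrays that fall into 4 groups. A statement on Mcl1 therefore holds for one probe only. Which transcripts each probe reads was not tested.

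**Figure D2:**
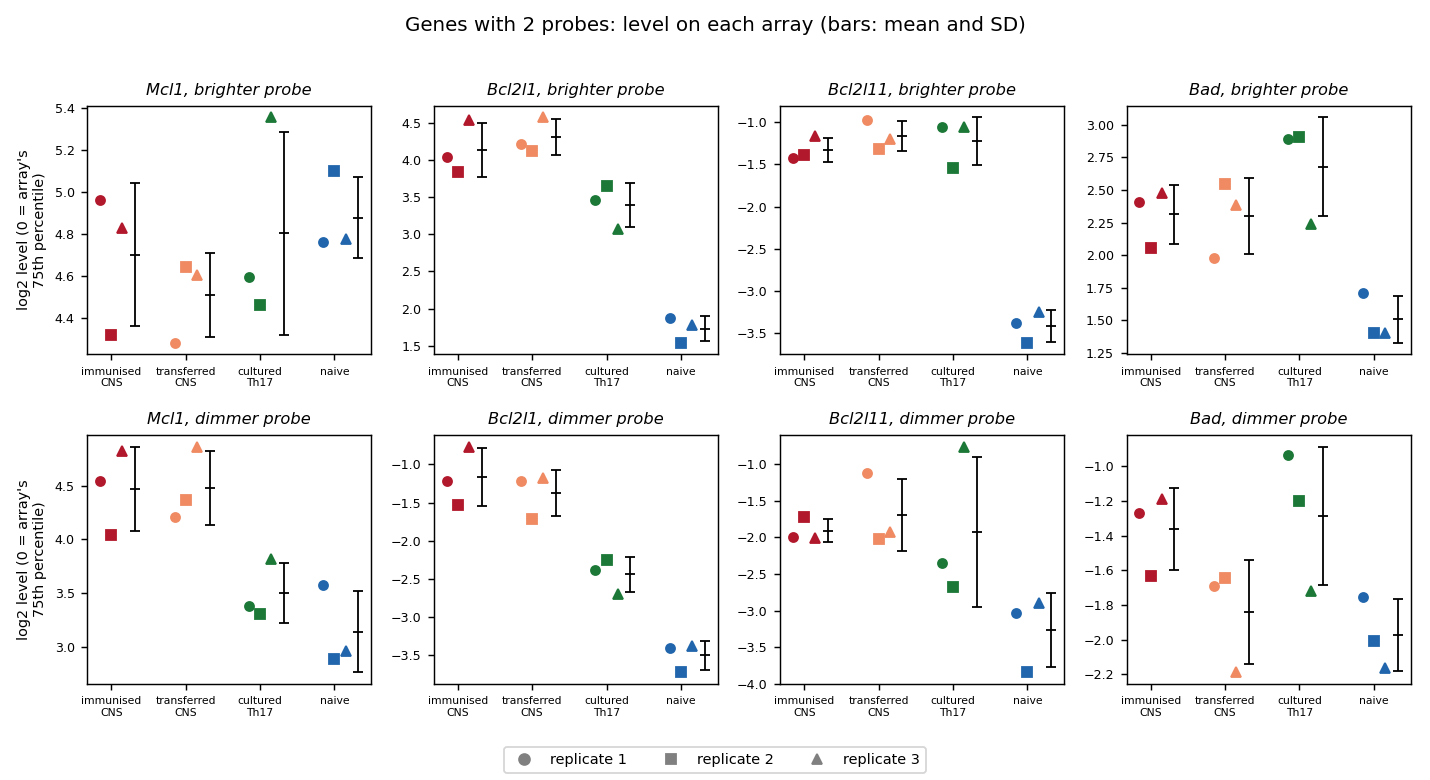
Level on every array (y axis, log2 signal relative to the array's 75th percentile) of the brighter and the dimmer probe of Mcl1, Bcl2l1, Bcl2l11 and Bad in the 4 groups, with bars for the mean and SD of 3 arrays. The Mcl1 probes disagree, with CNS means of 4.47 and 4.48 against 3.50 in cultured Th17 and 3.14 in naive cells on the dimmer probe. On the brighter one all groups overlap except transferred CNS and naive. Both Bcl2l1 probes are lowest in naive cells.

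For the other genes with 2 probes, the dimmer probe mostly gave the direction of the brighter one. The second Bcl2l1 probe (mm9 chr2:152655185-152655244) rose by 2.33 in immunised CNS, 2.13 in transferred CNS and 1.06 in cultured Th17 against naive, all called. The second Bcl2l11 probe rose by 1.36, 1.57 and 1.33 in the same 3 groups (adjusted p = 0.0331, 0.0169 and 0.0415). The second Bad probe rose by 0.69 in cultured Th17 (adjusted p = 0.0423), while its differences of 0.61 in immunised CNS (adjusted p = 0.0565) and 0.13 in transferred CNS (adjusted p = 0.68) were not called.

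Both pore-forming effectors rose against naive cells in all 3 other groups. Bak1 (mm9 chr17:27156807-27156866), whose product sits in the mitochondrial outer membrane, had levels of 3.62, 3.55 and 3.75 in immunised CNS, 3.20, 3.58 and 3.86 in transferred CNS, 3.66, 3.45 and 3.60 in cultured Th17 and 2.35, 2.49 and 2.35 in naive cells. The naive arrays stood below all others, and the other 3 groups overlapped. Its rise was 1.24 in immunised CNS (SE 0.18, adjusted p = 0.000284), 1.15 in transferred CNS (SE 0.18, adjusted p = 0.000443) and 1.18 in cultured Th17 (SE 0.18, adjusted p = 0.000473).

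Bax (mm9 chr7:52717122-52717181), whose product moves from the cytosol to mitochondria, had levels of 3.32, 3.33 and 3.41 in immunised CNS, 3.43, 3.60 and 3.77 in transferred CNS, 3.83, 3.86 and 3.99 in cultured Th17 and 3.04, 2.61 and 3.04 in naive cells. The groups fell in that order without overlap, cultured Th17 highest, then transferred CNS, immunised CNS and naive. Against naive Bax rose by 0.46 in immunised CNS (SE 0.16, adjusted p = 0.0378), 0.70 in transferred CNS (SE 0.16, adjusted p = 0.00479) and 0.9995 in cultured Th17 (SE 0.16, adjusted p = 0.000775). It was lower in immunised CNS than in cultured Th17 by a log2 difference of -0.54 (SE 0.16, adjusted p = 0.0283), which was -0.49 without cultured replicate 3 (adjusted p = 0.0589) and not called without any 1 of the immunised CNS arrays (adjusted p up to 0.0849). The other neighbours in that order, the CNS groups and transferred CNS against cultured Th17, were not called (differences of -0.25 and -0.30). The rise of 0.46 in immunised CNS was 0.32 under quantile normalisation and not called (adjusted p = 0.0912), and 5 of 12 arrays ended its call when left out, with 0.32 and an adjusted p of 0.145 without naive replicate 2.

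Among the BH3-only genes, Pmaip1 had the largest difference from naive of all 10 members. Pmaip1, which encodes NOXA, a partner that binds MCL1 and is known as a p53 target, had levels of 2.52, 3.11 and 3.03 in immunised CNS and 2.99, 2.73 and 2.40 in transferred CNS. They were 2.16, 4.08 and 1.004 in cultured Th17 and -1.01, -1.86 and -1.77 in naive cells. Every naive array lay below every other array, and the cultured arrays spread over 3.08 log2 units, more than any other group of any member. Against naive, Pmaip1 was 21.6-fold higher in immunised CNS (log2 4.43, SE 0.61, adjusted p = 0.000234), 19.1-fold higher in transferred CNS (log2 4.25, SE 0.61, adjusted p = 0.000284) and 15.6-fold higher in cultured Th17 (log2 3.96, SE 0.61, adjusted p = 0.000557). Because of that spread the differences between the non-naive groups were poorly bounded: transferred CNS minus cultured Th17 was 0.29 with an interval of -1.06 to 1.64. Immunised CNS minus cultured Th17 was 0.47 and not called, but 1.30 without cultured replicate 2 (adjusted p = 0.0303).

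Bcl2l11, which encodes BIM, had levels of -1.43, -1.39 and -1.16 in immunised CNS, -0.97, -1.32 and -1.20 in transferred CNS, -1.06, -1.55 and -1.06 in cultured Th17 and -3.38, -3.62 and -3.25 in naive cells. The 3 groups other than naive overlapped closely, and naive cells stood apart below them. The fold over naive was 4.26 in immunised CNS (log2 2.09, SE 0.19, adjusted p = 1.31e-05), 4.77 in transferred CNS (log2 2.25, SE 0.19, adjusted p = 8.18e-06) and 4.58 in cultured Th17 (log2 2.20, SE 0.19, adjusted p = 1.29e-05). Between the non-naive groups its differences were 0.06 for transferred CNS and -0.11 for immunised CNS against cultured Th17, neither called.

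Bbc3 (mm9 chr7:16903403-16903462), which encodes PUMA, a p53 target that binds all the survival proteins, had levels of 2.46, 2.63 and 1.98 in immunised CNS, 2.40, 1.54 and 2.16 in transferred CNS, 2.19, 1.93 and 2.23 in cultured Th17 and 1.08, 0.05 and 0.25 in naive cells. All naive arrays were lower than all others. It was 3.73-fold higher than naive in immunised CNS (log2 1.90, SE 0.31, adjusted p = 0.000638), and rose by 1.57 in transferred CNS (SE 0.31, adjusted p = 0.00193) and 1.66 in cultured Th17 (SE 0.31, adjusted p = 0.00179).

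Bad (mm9 chr19:7026323-7026382), whose product is held inactive by phosphorylation downstream of growth factor signals, had levels of 2.41, 2.05 and 2.47 in immunised CNS, 1.98, 2.54 and 2.38 in transferred CNS, 2.89, 2.90 and 2.24 in cultured Th17 and 1.71, 1.41 and 1.40 in naive cells. Naive arrays again lay below all others and the rest overlapped. Its rise over naive was smaller, 0.80 in immunised CNS (SE 0.23, adjusted p = 0.0153), 0.79 in transferred CNS (SE 0.23, adjusted p = 0.0161) and 1.17 in cultured Th17 (SE 0.23, adjusted p = 0.00253). With both probes averaged, the transferred CNS rise was 0.46 and not called (adjusted p = 0.108). Leaving out 1 array ended the call for 3 of 12 arrays in immunised CNS (adjusted p up to 0.0589) and for 4 of 12 in transferred CNS (adjusted p up to 0.0649).

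Bid, whose product links death receptors to mitochondria after cleavage by caspase 8, was the exception among the BH3-only genes. Its probe (mm9 chr6:120843464-120843523, minus strand) gave 0.28, -0.06 and 0.26 in immunised CNS, -0.05, -0.14 and 0.16 in transferred CNS, -1.45, -2.18 and -1.87 in cultured Th17 and 0.36, 0.07 and 0.18 in naive cells. The cultured arrays lay below all 9 others, which overlapped. In cultured Th17 cells Bid fell 4.10-fold against naive (log2 -2.04, SE 0.20, adjusted p = 3.54e-05), by 1.81 to 2.25 within slides. Against cultured Th17 it was 3.97-fold higher in immunised CNS (log2 1.99, SE 0.20, adjusted p = 6.3e-05) and 3.54-fold higher in transferred CNS (log2 1.82, SE 0.20, adjusted p = 0.000127). Its differences from naive were -0.05 in immunised CNS and -0.21 in transferred CNS, neither called. The macrophage and monocyte sums above were also higher in both CNS groups than in cultured cells, and their part in this difference was not tested.

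**Figure D3:**
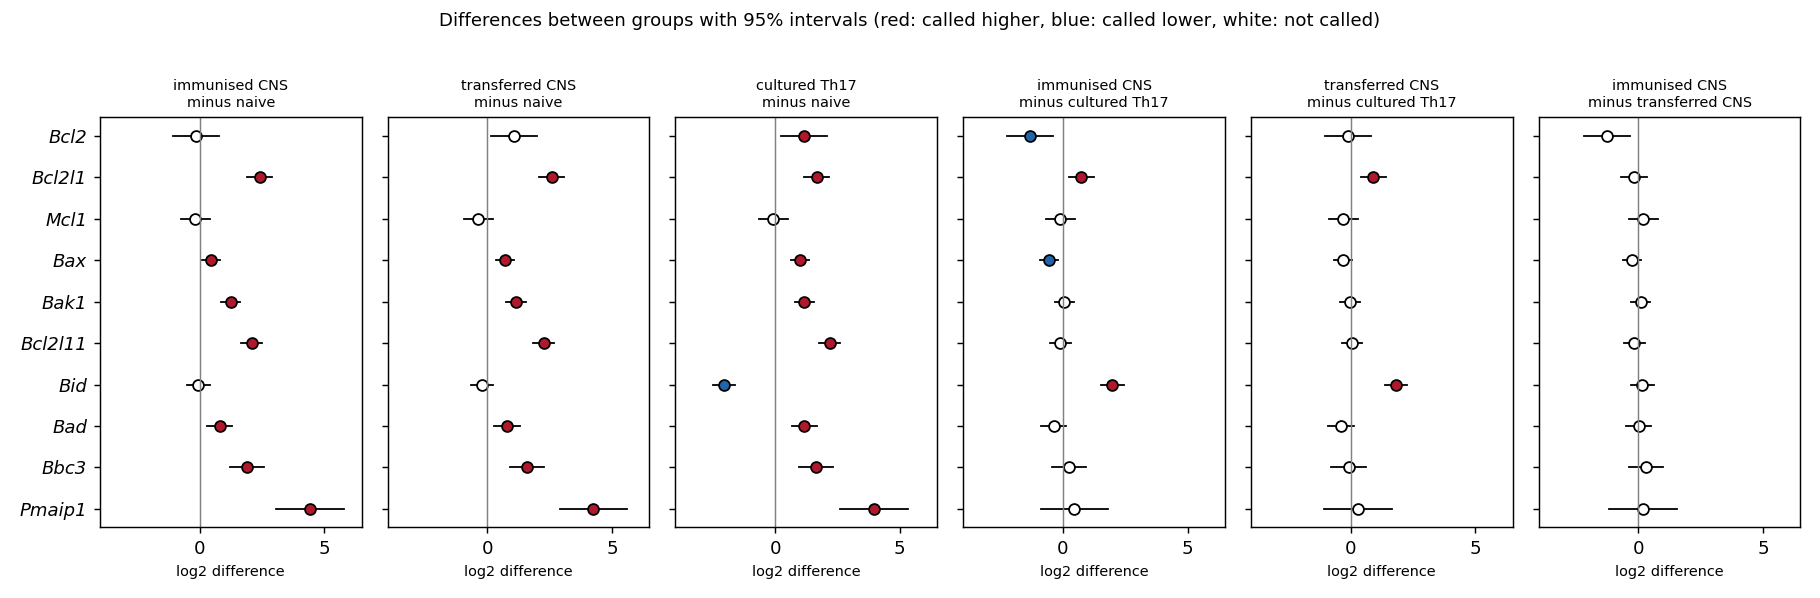
Log2 difference (x axis) of each of the 10 genes in the 6 comparisons, with 95% intervals of the limma model, red for called higher, blue for called lower and white for not called. The 3 comparisons against naive hold 23 of the 29 called differences, Bid is blue only in cultured Th17 minus naive, and the last panel, immunised minus transferred CNS, holds none.

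The other genes of the family were described from a list of 16, of which 14 were on the array and 11 were tested; Bok, Bcl2l10 and Hrk were too dim. Against naive, 6 rose and 2 fell in immunised CNS, 6 rose and 2 fell in transferred CNS, and 7 rose and 2 fell in cultured Th17, with medians of 1.86, 1.73 and 2.40. Of all genes tested 48.4%, 47.7% and 40.1% were called in these comparisons, and 31.5% and 28.3% in immunised and in transferred CNS against cultured Th17. Those that fell in the CNS groups were Bcl2l12 and Bcl2l13, named after their values were seen. Against cultured Th17, 3 rose and 4 fell in each CNS group, and between the CNS groups none was called, with 1 at an unadjusted p under 0.05. Without cultured replicate 3, 3 rose and 5 fell in immunised CNS and 3 rose and 3 fell in transferred CNS against cultured Th17.

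The A1 genes Bcl2a1c and Bcl2a1d are close copies of one survival gene that is induced by NF-kappaB in lymphocytes and is also expressed by myeloid cells. Bcl2a1d had levels of 6.56, 6.59 and 6.85 in immunised CNS, 5.69, 6.28 and 6.56 in transferred CNS, 4.31, 4.97 and 1.60 in cultured Th17 and 1.17, 1.15 and 1.36 in naive cells. Cultured replicate 3 lay near the naive arrays, and the CNS arrays lay above all cultured arrays. Against naive it rose by 5.44 in immunised CNS (adjusted p = 0.000116), 4.95 in transferred CNS (adjusted p = 0.000196) and 2.40 in cultured Th17 (adjusted p = 0.0161), the last 3.42 without cultured replicate 3. Bcl2a1c rose by 5.73 in immunised CNS, 4.88 in transferred CNS and 2.21 in cultured Th17, the last 3.22 without cultured replicate 3, which lay at -2.43, inside the naive range. Their probes may read each other's transcripts, so the 2 values are not separate measurements. These were the largest family rises in cells of the CNS, and the part of myeloid RNA in them was not tested.

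Other survival and death genes of the family peaked in culture. Bcl2l2, the gene of the survival protein BCL-W, had levels of -0.96, -1.19 and -0.80 in immunised CNS, -1.01, -0.57 and -0.47 in transferred CNS, -0.13, 0.37 and 0.26 in cultured Th17 and -3.37, -2.56 and -2.61 in naive cells. It rose by 3.02 in cultured Th17 against naive (SE 0.25, adjusted p = 1.15e-05). Bik, a BH3-only gene, had -1.08, -0.61 and -1.18 in immunised CNS, -1.56, -1.74 and -1.57 in transferred CNS, 0.12, 0.48 and 0.15 in cultured Th17 and -4.33, -4.27 and -4.63 in naive cells, and no groups overlapped. Bik rose by 4.66 in cultured Th17 against naive (SE 0.19, adjusted p = 2.17e-07), by 3.46 in immunised CNS and by 2.79 in transferred CNS. Bnip3, a hypoxia-induced gene linked to the removal of mitochondria, rose by 5.23 in cultured Th17 against naive (adjusted p = 0.000118), or 4.51 without cultured replicate 3. Bcl2l14 rose by 2.49 in cultured Th17 and was lower against cultured Th17 in both CNS groups, by log2 differences of -2.58 in immunised CNS and -3.40 in transferred CNS.

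Bmf, a BH3-only gene whose product is held at the cytoskeleton, was also lowest in cultured cells, as Bid was. Its levels were 0.56, -0.64 and 0.09 in immunised CNS, 0.30, 0.98 and -0.12 in transferred CNS, -1.97, -2.45 and -2.61 in cultured Th17 and -0.06, -0.06 and -0.62 in naive cells. The cultured arrays were below all others. It rose against cultured Th17 by 2.34 in immunised CNS (SE 0.36, adjusted p = 0.000772) and 2.73 in transferred CNS (SE 0.36, adjusted p = 0.000352), and it fell in cultured Th17 against naive (log2 -2.10, adjusted p = 0.00101).

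**Figure D4:**
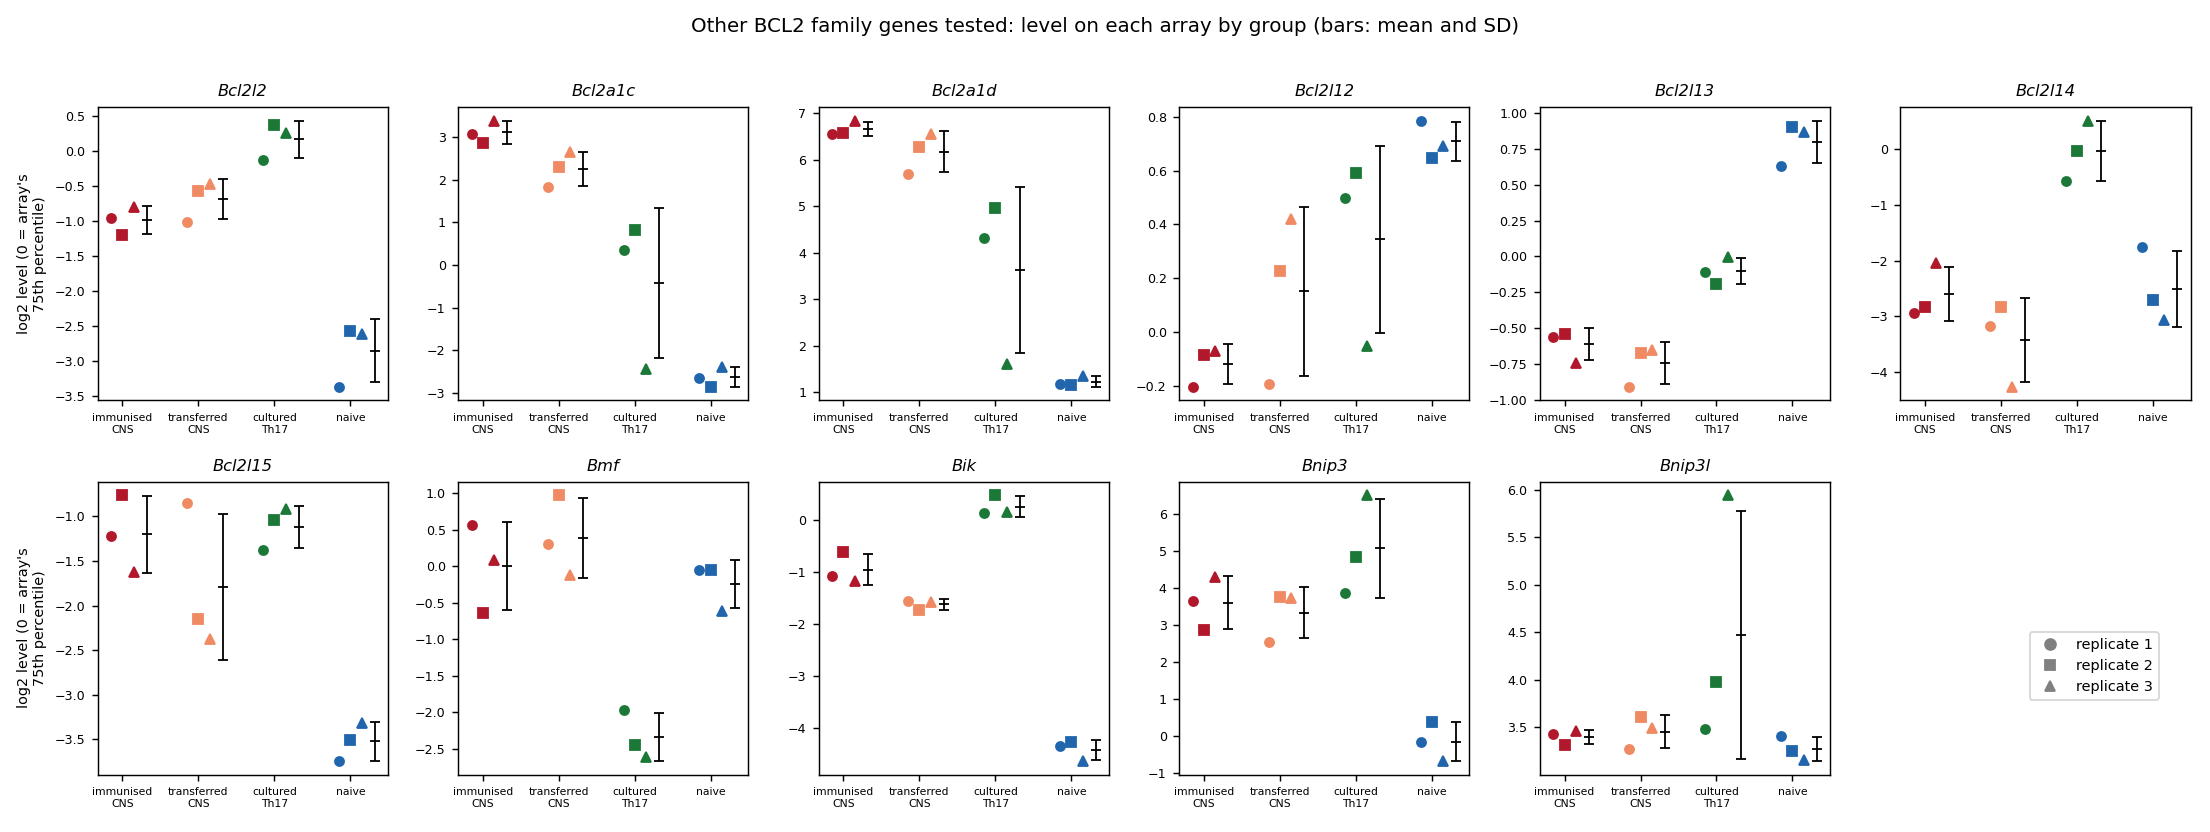
Level on every array (y axis, log2 signal relative to the array's 75th percentile, with its own range for each gene) of the 11 other BCL2 family genes tested in the 4 groups, with bars for the mean and SD of 3 arrays. Bik and Bcl2l2 are highest on the 3 cultured arrays, Bmf is lowest on them, and cultured replicate 3 lies apart for Bcl2a1c, Bcl2a1d and Bnip3l.

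Downstream of the mitochondrion, 20 genes of the apoptosome, caspases, their inhibitors and mitochondrial channels were tested. Against naive, 8 rose and 3 fell in immunised CNS, 7 rose and 3 fell in transferred CNS and 9 rose and 3 fell in cultured Th17, with medians of 0.26, 0.27 and 0.40. The shares called in the CNS groups, 11 of 20 and 10 of 20, were near those of all genes (48.4% and 47.7%), and that in cultured Th17 was 12 of 20, against 40.1%. Without cultured replicate 3, 9 rose and 6 fell in transferred CNS. Apaf1, the scaffold of the apoptosome, rose by 1.99 in cultured Th17 against naive (adjusted p = 1.41e-05) and was lower than in cultured Th17 by log2 differences of -1.04 in immunised CNS and -1.56 in transferred CNS. Casp6 showed the same turn, at 2.32 in cultured Th17 against naive and -2.31 in immunised CNS and -2.20 in transferred CNS against cultured Th17. Its cultured levels were 2.82, 2.80 and 4.49, so replicate 3 enlarged all 3 differences. Birc5, a survivin gene that also works in cell division, rose by 1.99 in immunised CNS, 2.78 in transferred CNS and 2.93 in cultured Th17 against naive. Dffb, the caspase-activated DNase, fell in both CNS groups against naive (log2 -1.46 in immunised CNS and -1.76 in transferred CNS). Its cultured levels of -1.58, -1.87 and -1.56 also lay below the naive levels of -0.33, -0.08 and -0.57. Against cultured Th17, 2 rose and 2 fell in immunised CNS and 1 rose and 4 fell in transferred CNS, where 31.5% and 28.3% of all genes were called. Leaving out cultured replicate 3 gave 1 that rose and 2 that fell in immunised CNS. Between the CNS groups none was called, with 1 at an unadjusted p under 0.05.

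The death receptor pathway, which Bid joins to the mitochondrion, was covered by 14 genes. Against naive, 6 rose and 1 fell in immunised CNS, 4 rose and 2 fell in transferred CNS and 4 rose and 3 fell in cultured Th17; against cultured Th17, 4 rose and 3 fell in immunised CNS and 3 rose and 4 fell in transferred CNS. Of all genes 48.4%, 47.7% and 40.1% were called against naive and 31.5% and 28.3% against cultured Th17, in the same order of groups. Without cultured replicate 3, 5 rose and 4 fell in transferred CNS and 6 rose and 3 fell in cultured Th17 against naive. Medians against naive were 0.27 in immunised CNS, 0.11 in transferred CNS and 0.20 in cultured Th17. Fasl, the ligand of the death receptor Fas, rose by 4.40 in immunised CNS (SE 0.36, adjusted p = 1.59e-05) and 3.54 in transferred CNS (SE 0.36, adjusted p = 7.17e-05) against cultured Th17, and fell in cultured Th17 against naive (log2 -1.40, adjusted p = 0.0105). Cflar, which encodes the caspase 8 inhibitor FLIP, rose against cultured Th17 by 2.29 in immunised CNS (adjusted p = 0.000383) and 1.96 in transferred CNS (adjusted p = 0.00116). Tnfsf10, the gene of TRAIL, rose against cultured Th17 by 1.75 in immunised CNS (adjusted p = 0.0325) and 1.79 in transferred CNS (adjusted p = 0.0318), or 0.96 and 0.99 without cultured replicate 3. Fas and Tnfrsf10b, named after their values were seen, lay lower on every CNS array than on every cultured array. Fas had 1.28, 1.26 and 1.23 in immunised CNS, 1.56, 1.25 and 0.75 in transferred CNS and 2.66, 3.05 and 2.16 in cultured Th17. Tnfrsf10b had -1.41, -0.79 and -1.47 in immunised CNS, -1.52, -1.96 and -1.52 in transferred CNS and -0.03, 0.43 and 0.67 in cultured Th17. Mlkl, the necroptosis effector, rose against naive by 3.58 in immunised CNS, 3.67 in transferred CNS and 3.30 in cultured Th17. Between the CNS groups none was called, with 1 at an unadjusted p under 0.05, and 1 was called without cultured replicate 3.

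Among 15 upstream regulators tested, 5 rose and 4 fell in immunised CNS, 5 rose and 5 fell in transferred CNS and 5 rose and 3 fell in cultured Th17 against naive, where 48.4%, 47.7% and 40.1% of all genes were called. Medians against naive were -0.10 in immunised CNS, -0.29 in transferred CNS and 0.18 in cultured Th17. With cultured replicate 3 left out, 6 fell in immunised CNS and 2 fell in cultured Th17 against naive. Trp53, the gene of p53, was named after its values were seen and lay lower on every CNS array than on every naive array. Its levels were -1.79, -2.11 and -1.62 in immunised CNS and -2.05, -1.88 and -1.46 in transferred CNS. They were -0.57, -1.10 and -1.56 in cultured Th17 and -0.89, -0.84 and -0.46 in naive cells. Cdkn1a, a p53 target that stops the cell cycle, was well above background on 1 of 3 naive arrays. With naive arrays raised to the lowest level well above background where they lay under it, Cdkn1a was at least 239.5-fold higher than naive in immunised CNS. On the same basis it was at least 239.3-fold higher in transferred CNS and at least 325-fold in cultured Th17. The limma model on the levels before raising gave adjusted p-values of 4e-07, 4.09e-07 and 4.48e-07 in that order of groups. The raised levels were not tested. Foxo1, a transcription factor of naive cells that is switched off by AKT, fell against naive in immunised CNS (log2 -1.57, adjusted p = 0.000642) and in transferred CNS (log2 -1.999, adjusted p = 0.000133), while Foxo3, known to induce Bcl2l11 and Bbc3, rose by 1.51 and 1.57 in the same groups. Pim1, a kinase that phosphorylates BAD, rose against naive by 2.34 in immunised CNS, 1.55 in transferred CNS and 1.65 in cultured Th17. Il7r, the receptor chain through which interleukin 7 sustains Bcl2, was lower in transferred CNS than in cultured Th17 (log2 -1.40, adjusted p = 0.0241) and rose by 1.11 in cultured Th17 against naive (adjusted p = 0.0471). Its cultured levels were 4.76, 4.65 and 3.36, with replicate 3 near the naive levels of 3.03, 3.07 and 3.34. Against cultured Th17, 1 rose and 2 fell in each CNS group, where 31.5% of all genes were called in immunised and 28.3% in transferred CNS. With cultured replicate 3 left out, 4 fell in transferred CNS against cultured Th17. Between the CNS groups none was called, with 1 at an unadjusted p under 0.05.

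Genes with patterns like those of the 3 members with the widest range of group means were sought among 14925 others above background on all 12 arrays. By Pearson r over the 12 arrays, which fall into 4 groups, the closest to Pmaip1 were Fam129a (0.97), Tnfsf9 (0.97) and Mapkapk3 (0.97), and the closest to Bcl2l1 were Litaf (0.99), Pld2 (0.99) and Slc6a8 (0.98). The closest to Bcl2l11 were Ebi3 (0.99), an array probe with no gene symbol (0.98) and Mfsd10 (0.98).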

How the data were processed

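Each array was measured in 1 colour (Cy3). The intensity values (processed signal) came, per the file headers, from Agilent Feature Extraction (version 10.7.3.1, protocol GE1_107_Sep09) without normalization between arrays; the deposited series matrix, whose normalization is not stated, served as an alternative. Of 44397 spots, 43020 were not controls; outlier-flagged spots (120 to 180 per array) were left out, repeated spots averaged, and 39405 probes used. Levels are log2 signals minus each array's 75th percentile (a signal of 658 to 940). A gene is its brightest probe, tested where some group had it well above background on its 3 arrays. Coordinates are those of the array annotation (mm9); exon and UTR positions were not analysed here. One model over 12 arrays was fitted with limma 3.58.1 in R 4.3.3 (8 residual degrees of freedom), and all p-values are two-sided, Benjamini-Hochberg adjusted. The fit was tested on simulated data. Every member is named; from other lists up to 4 called genes per comparison whose groups do not overlap, by size of change. One gene that this rule would name is not reported here. The members and lists were chosen with earlier results of these data known. Each of 3 slides held 1 array of each group at a fixed position. The number of arrays limits the precision. Alternatives were other scalings, background correction, filters, probe choice, slide as a block, priors, thresholds and leaving out each array; for the other lists, leaving out cultured replicate 3 was chosen after seeing the data. Python 3.11.15 and matplotlib 3.10.9 drew the figures.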

Additional observations from a re-analysis of the deposited data

How the results depend on the processing

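The number of arrays and the signal over background limit what these data can show. Each of 60 member differences was recomputed under 11 other settings and without each of 12 arrays. Of 29 called differences, 295 of 319 values under other settings and 314 of 348 without an array stayed called, and 0 changed direction. The calls lost were 8 differences of Bcl2, Bcl2l1, Bax and Bad. Median scaling moved the median of all genes in cultured Th17 minus naive to 0.03, where it was -0.08 with the 75th percentile.

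The replicate block (slide) kept 28 of the 29 calls and lost Bcl2 in cultured Th17 minus naive (adjusted p = 0.05). The correlation of deviations between arrays of the same number was -0.198 to 0.204, so the numbers were not shown to pair the samples.

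At an adjusted p under 0.01, 4714 genes were called for cultured Th17 minus naive, 2691 genes and 1 member for transferred CNS minus cultured Th17, 3286 genes and 1 member for immunised CNS minus cultured Th17, and 186 genes for immunised minus transferred CNS. With only the 6 arrays compared, 3318 genes were called for transferred CNS minus cultured Th17, and 1 member each for immunised CNS minus cultured Th17 and immunised minus transferred CNS. With no filter on dim probes, 1 member was called for immunised CNS minus cultured Th17 and 372 genes for immunised minus transferred CNS, where the filter on all 12 arrays gave 367. Fewer arrays or another set of genes tested go with these counts, and the cause was not tested otherwise.

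Leaving out 1 array gave 1 to 2 members for transferred CNS minus cultured Th17 (1 without transferred CNS replicate 3), 1 to 5 for immunised CNS minus cultured Th17 (1 without cultured replicate 3, immunised CNS replicate 1 or 3, and 2 without immunised CNS replicate 2), and 0 to 1 for immunised minus transferred CNS (1 without cultured replicate 3). Genes called for immunised minus transferred CNS ran between 194 without immunised CNS replicate 1 and 1284 without cultured replicate 3, with 221 and 366 without immunised CNS replicates 2 and 3 and 342 and 272 without transferred CNS replicates 2 and 3.

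Some differences that were not called changed direction. With all probes of a gene averaged, Mcl1 was 0.577 in immunised CNS, 0.486 in transferred CNS and 0.144 in cultured Th17 against naive, and 0.433 in immunised CNS and 0.342 in transferred CNS against cultured Th17, and Bcl2l1 was 0.017 in immunised minus transferred CNS. With median scaling, Mcl1 was 0.0352 in cultured Th17 minus naive, Bcl2l11 -0.0558 in transferred CNS minus cultured Th17 and Bak1 -0.0111 in immunised CNS minus cultured Th17. Quantile normalisation gave 0.0211 and the series matrix 0.0209 for Bak1 in transferred CNS minus cultured Th17, and -0.0241 and -0.024 for Bad in immunised minus transferred CNS. Without 1 array, the ranges in cultured Th17 minus naive were Mcl1 -0.351 to 0.0981. In transferred CNS minus cultured Th17 they were Bcl2 -0.359 to 0.443, Bak1 -0.183 to 0.146, Bcl2l11 -0.104 to 0.141, Bbc3 -0.266 to 0.167 and Pmaip1 -0.415 to 1.13. In immunised CNS minus naive they were Bcl2 -0.401 to 0.132, Mcl1 -0.307 to 0.0159 and Bid -0.112 to 0.0636. In immunised CNS minus cultured Th17 they were Mcl1 -0.275 to 0.174 and Pmaip1 -0.238 to 1.30. In immunised CNS minus transferred CNS they were Bak1 -0.0794 to 0.25 and Bad -0.151 to 0.14. The cause of these changes was not tested.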
